A study of Homo sapiens with 6 samples.

Results

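Immune checkpoint ligands are proteins that a tumour cell, or a cell beside it, presents or secretes to hold back T cells, natural killer cells or macrophages. The 10 genes examined were CD274, PDCD1LG2, CD276, VTCN1, HHLA2, CD80, PVR, NT5E, CD47 and LGALS9. They were taken by name, and each of the 10 was found among the 20811 genes measured, with 1 amplicon each. The question was how the messages of these genes compared in HuCCT1/CD90+ and HuCCT1/CD90- cells.

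HuCCT1 is an established human cell line of intrahepatic cholangiocarcinoma, a bile duct cancer, and CD90 is the cell surface protein encoded by THY1. HuCCT1/CD90+ cells carried a human THY1-CMV-GFP lentivirus and HuCCT1/CD90- cells the blank vector, Lenti-CMV-GFP-2A-Puro-Blank, each given at a multiplicity of infection (MOI) of 40. Both lines were therefore transduced, both vectors name GFP and a CMV promoter, and both lines were grown in the same RPMI medium with serum and an antibiotic-antimycotic. Each line was sampled as 3 libraries numbered 1 to 3. The labels do not say whether these came from separate cultures, so the p-values measure only the spread between libraries, which may be technical, and whether a line was grown from few transduced cells is not stated.

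The transduced gene was as labelled, since THY1 had 435, 445 and 680 reads in HuCCT1/CD90+ and 0, 1 and 0 reads in HuCCT1/CD90-. The libraries held 8587634 to 10551516 reads on genes, and values are given in RPM, the reads of a gene scaled to a fixed library total. A floor of 3 reads was used, which was worth 0.284 to 0.349 RPM, and a gene is called at the floor of a line when none of its libraries there exceeded this. This floor covers counting error only. The 8 markers of bile duct epithelium were all above the floor, with summed levels of 8211 to 9314 RPM in HuCCT1/CD90- libraries, against 10976 to 11722 RPM in those of HuCCT1/CD90+. Of 12 immune cell markers, 7 were at the floor in both lines, among them PTPRC, CD3E and MS4A1, the last at 0 reads in all libraries as was FCGR3A. The summed level of the 12 was nevertheless 114 to 131 RPM in HuCCT1/CD90- libraries, against 7.29 to 9.55 RPM in those of HuCCT1/CD90+, since CD14 fell from 80.8 to 4.32 RPM and HLA-DRA from 28.6 to 0.113 RPM, with LYZ lower as well, while CD79A went from 0 reads in each HuCCT1/CD90- library to 10, 12 and 7 reads. The part of these markers in the results below was not tested.

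As background, the B7 family is a group of related membrane proteins that bind receptors on T cells. CD274 (PD-L1) and PDCD1LG2 (PD-L2) bind PD-1, which dampens T cell activation, and interferon gamma is the best known inducer of CD274 through JAK kinases and IRF1. CD80 binds CD28 and CTLA-4, HHLA2 binds TMIGD2 and KIR3DL3, and CD276 (B7-H3) and VTCN1 (B7-H4) are inhibitory members that many carcinomas carry. PVR (CD155) is bound by TIGIT, CD96 and CD226. NT5E (CD73) makes adenosine, which suppresses lymphocytes, outside the cell. CD47 signals to SIRP alpha on macrophages not to engulf the cell, and LGALS9 (galectin 9) is a secreted lectin that binds TIM-3, the product of HAVCR2.

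The bases just before the start site of a gene carry much of its promoter, and 3 of these windows are shown because CD274 is the ligand with the best described inducer and CD47 and LGALS9 had the largest changes of level. Each holds the 250 bases before a start site and the first base after it, in the orientation of the gene, from RefSeq on GRCh38.p14. The windows of LGALS9 and CD47 lie inside the gene positions given below, which begin farther upstream, so other start sites are possible. Capitals mark matches, on either strand, to the interferon regulatory factor (IRF) element GAAANNGAAA or the GC box GGGCGG. The window of CD274 is chr9:5450292-5450542 on the plus strand, that of LGALS9 is chr17:27630938-27631188 on the plus strand and that of CD47 is chr3:108091031-108091281 on the minus strand.
CD274: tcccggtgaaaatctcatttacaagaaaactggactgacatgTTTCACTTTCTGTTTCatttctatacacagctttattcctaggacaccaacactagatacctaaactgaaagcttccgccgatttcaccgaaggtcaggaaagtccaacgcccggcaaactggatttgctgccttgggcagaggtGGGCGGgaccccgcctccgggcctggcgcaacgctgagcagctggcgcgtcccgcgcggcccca
LGALS9: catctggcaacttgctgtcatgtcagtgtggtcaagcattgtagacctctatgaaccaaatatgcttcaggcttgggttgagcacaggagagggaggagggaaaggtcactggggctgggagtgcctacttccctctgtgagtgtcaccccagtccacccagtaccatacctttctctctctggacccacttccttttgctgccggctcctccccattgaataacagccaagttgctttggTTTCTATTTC
CD47: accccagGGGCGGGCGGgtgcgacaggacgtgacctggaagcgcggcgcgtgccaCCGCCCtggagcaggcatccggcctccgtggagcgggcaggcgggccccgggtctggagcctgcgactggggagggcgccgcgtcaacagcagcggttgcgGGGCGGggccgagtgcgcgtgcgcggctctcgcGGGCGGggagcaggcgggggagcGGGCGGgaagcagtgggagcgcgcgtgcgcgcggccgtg
CD274 held 2 IRF elements, which overlap at their ends and begin 208 and 202 bases before the start site, and 1 GC box 63 bases before it. LGALS9 had 1 IRF element, which begins 9 bases before the start site. CD47 held 6 GC boxes, the first pair of them overlapping, and no IRF element. Among 35116 windows of the same length, 3.04% held the IRF element and 42.7% the GC box. Windows were found for 9 of the 10 genes. NT5E had 2 GC boxes, CD276 had 7 in 1 of its windows and 2 in the other, and PVR, VTCN1, HHLA2 and CD80 had none of these letters. A match is a description of sequence and no evidence of binding.

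Of the 10 genes, 6 passed the test (adjusted p of at most 0.05, limma on log2(RPM + 1), Benjamini-Hochberg adjustment over all genes), all 6 higher in HuCCT1/CD90+. PDCD1LG2, PVR, NT5E, CD47 and LGALS9 were 5 of them, and the other was HHLA2, which was at the floor in both lines. Among all 20811 genes, 9.41% were higher and 9.52% lower by the same test. CD274 and CD276 were above the floor and did not pass, and VTCN1 and CD80 were at the floor in both lines. The median log2 fold change of the 10 genes was 0.66, against 0 over all genes. At the fold change of 1.5 and unadjusted p of at most 0.05 used by the study, 6 of the 10 were higher, with CD274 in the place of HHLA2, against 10.1% of all genes.

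**Figure D1:**
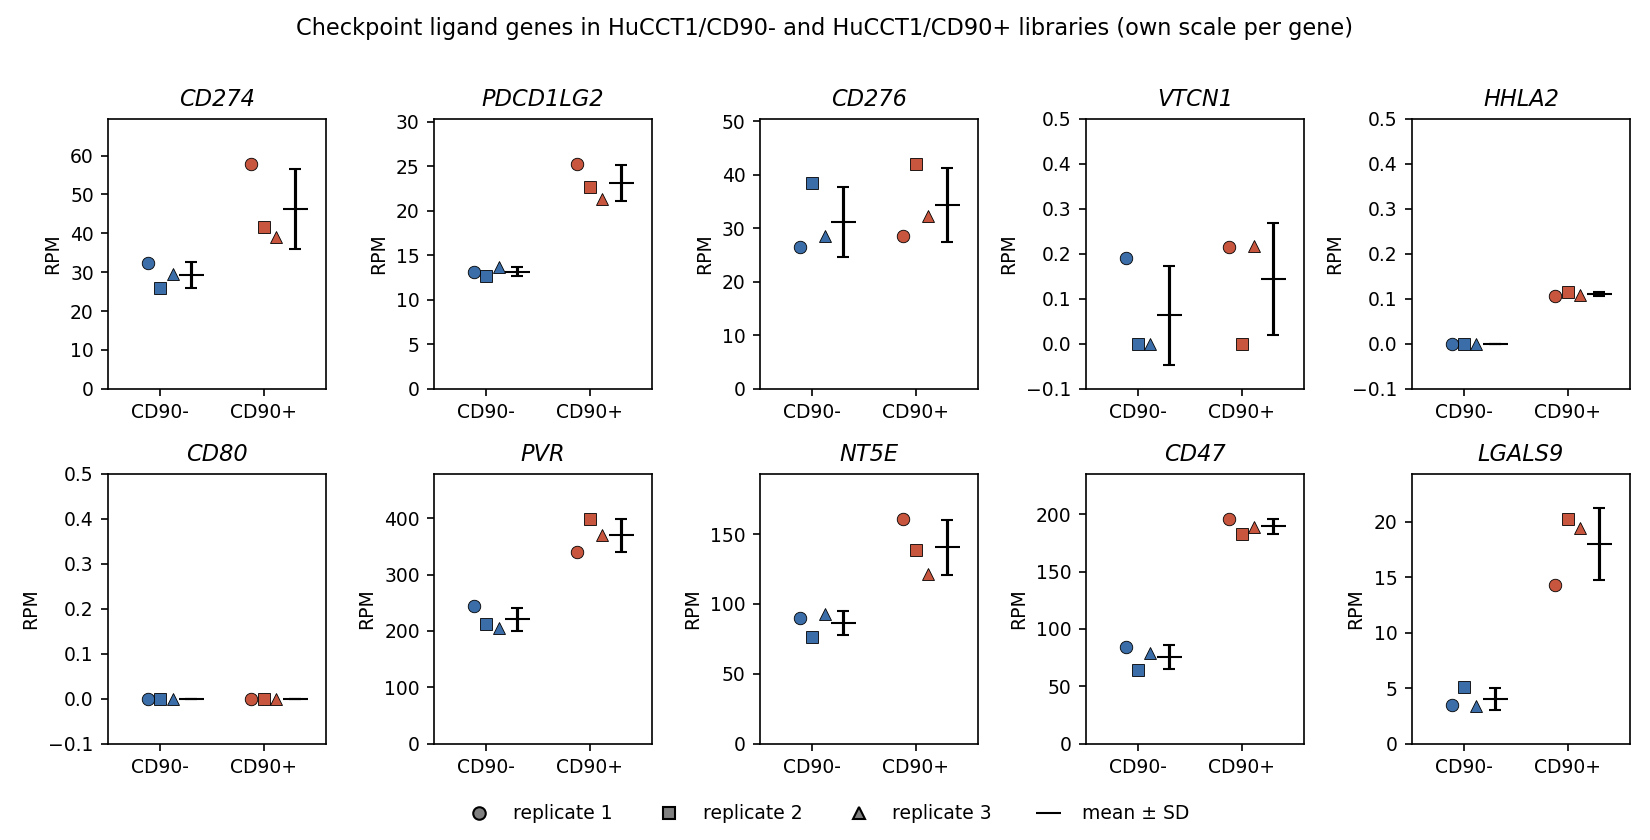
Level of each of the 10 genes in RPM (vertical axis, own scale per gene) in the HuCCT1/CD90- (blue) and HuCCT1/CD90+ (red) libraries, with the symbol giving the replicate number and the black line and bar the mean ± SD (n = 3). The lines do not overlap for CD274, PDCD1LG2, PVR, NT5E, CD47 and LGALS9, overlap for CD276, and stay under 0.5 RPM for VTCN1, HHLA2 and CD80.

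The ligands of PD-1 were examined first. CD274 (amplicon AMPL24924091, chr9:5450503-5470566 on the plus strand in GENCODE 29 on GRCh38, as all gene positions below) had 32.3, 25.9 and 29.6 RPM in HuCCT1/CD90- replicates 1, 2 and 3 and 57.9, 41.7 and 39.1 RPM in HuCCT1/CD90+ replicates 1, 2 and 3. Every HuCCT1/CD90+ library was above every HuCCT1/CD90- library, and HuCCT1/CD90+ replicate 1 stood above the other two. The mean of HuCCT1/CD90- was 29.3 ± 3.22 RPM and that of HuCCT1/CD90+ 46.2 ± 10.2 RPM (SD, n = 3 each, here and below), from 242 to 540 reads per library. The log2 fold change (log2FC, HuCCT1/CD90+ over HuCCT1/CD90-) was 0.63 (standard error 0.18, 95% interval 0.13 to 1.12), and this did not pass over all genes (adjusted p = 0.092, limma). Its call differed between fits. CD274 passed when the test was limited to genes whose mean reached 1 RPM (adjusted p = 0.017) or 10 RPM (adjusted p = 0.011) were tested, and on the recovered reads with edgeR after its filter (adjusted p = 0.0065) or without a filter (adjusted p = 0.0018) and with DESeq2 (adjusted p = 0.0032).

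PDCD1LG2 (AMPL15271188, chr9:5510570-5571254, plus strand) had 13.1, 12.7 and 13.7 RPM in HuCCT1/CD90- and 25.3, 22.7 and 21.4 RPM in HuCCT1/CD90+ replicates 1, 2 and 3. The libraries of each line lay close together and the lines were far apart. The mean rose from 13.2 ± 0.478 to 23.1 ± 2.00 RPM, a log2FC of 0.77 (standard error 0.070, adjusted p = 0.0047, limma), and it passed in all 18 alternatives tried. CD274 and PDCD1LG2 lie next to each other on chromosome 9, and within each library the ratio of the CD274 to the PDCD1LG2 level was 2.47, 2.03 and 2.16 in HuCCT1/CD90- and 2.29, 1.84 and 1.83 in HuCCT1/CD90+. These ranges overlap, and in each of the 3 same-numbered pairs the ratio was lower in HuCCT1/CD90+. Since 1 amplicon reads each gene, this ratio describes change between libraries and not which ligand is more abundant.

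The nearest genes placed on each side of this pair were higher as well. PLGRKT, the nearest placed before CD274, went from 26.4 to 40.3 RPM (log2FC 0.60, adjusted p = 0.023, limma, or 0.11 with the replicate number as a block). ERMP1, the nearest placed after PDCD1LG2, went from 66.2 to 110 RPM (log2FC 0.73, adjusted p = 0.021, limma). Both calls were lost without some library, with an adjusted p of up to 0.080 for PLGRKT and 0.081 for ERMP1. KIAA2026, the next gene on, had means of 12.5 RPM in HuCCT1/CD90- against 8.34 RPM in HuCCT1/CD90+ (log2FC -0.53, adjusted p = 0.16). Over the 50 nearest genes of chromosome 9 whose mean reached 10 RPM, the median log2FC was 0.0084 and 25 of the 50 were higher.

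CD276 (AMPL685494, chr15:73683966-73714518, plus strand) had 26.4, 38.5 and 28.5 RPM in HuCCT1/CD90- and 28.5, 42.0 and 32.3 RPM in HuCCT1/CD90+ replicates 1, 2 and 3. Replicate 2 was the highest library of both lines, and the lines overlapped. The mean was 31.2 ± 6.46 and 34.3 ± 6.97 RPM, a log2FC of 0.13 (standard error 0.22, 95% interval -0.44 to 0.71, adjusted p = 0.82, limma). This interval leaves room for a change of either sign. Without HuCCT1/CD90+ replicate 2 the log2FC was -0.018. Between libraries with the same number the ratio of HuCCT1/CD90+ to HuCCT1/CD90- was 1.08, 1.09 and 1.13, and with the replicate number as a block the adjusted p was 0.067.

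The remaining B7 genes were not detected above the floor. VTCN1 (AMPL14245640, chr1:117143587-117210960, minus strand) had 2, 0 and 0 reads in HuCCT1/CD90- and 2, 0 and 2 reads in HuCCT1/CD90+. CD80 (AMPL27742799, chr3:119524293-119559602, minus strand) had 0 reads in each of the 6 libraries, which over the 30205316 reads of HuCCT1/CD90- allows a level of up to 0.0993 RPM and over the 27130648 reads of HuCCT1/CD90+ up to 0.111 RPM. HHLA2 (AMPL12183619, chr3:108296490-108378285, plus strand) had 0 reads in each HuCCT1/CD90- library and 1 read in each HuCCT1/CD90+ library. Its adjusted p of 0.00043 (limma) came from 3 single reads with almost no spread, and it was 1 of 83 genes that passed while at the floor in both lines. It was not tested where a minimum mean was set, and did not pass with median centring of the libraries, edgeR or DESeq2, so no difference in HHLA2 is reported. A level at the floor is read from 1 amplicon, and isoforms without that amplicon would not be seen.

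PVR, the ligand of TIGIT (AMPL29255115, chr19:44643798-44663583, plus strand), had 245, 212 and 205 RPM in HuCCT1/CD90- and 340, 399 and 370 RPM in HuCCT1/CD90+ replicates 1, 2 and 3. The lines did not overlap. Its mean rose from 220 ± 21.2 to 369.5 ± 29.8 RPM, with 1979 to 3429 reads per library. The log2FC was 0.74 (standard error 0.098, 95% interval 0.48 to 1.01, adjusted p = 0.012, limma). With the replicate number as a block the adjusted p was 0.081, and the ratio between same-numbered libraries was 1.39, 1.89 and 1.81. Without HuCCT1/CD90+ replicate 3 the adjusted p was 0.055.

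NT5E, the enzyme that turns AMP into adenosine (AMPL10523826, chr6:85449584-85495791, plus strand), had 89.7, 76.4 and 92.9 RPM in HuCCT1/CD90- and 161, 139 and 121 RPM in HuCCT1/CD90+ replicates 1, 2 and 3. Again the lowest HuCCT1/CD90+ library was above the highest HuCCT1/CD90- library. The mean rose from 86.4 ± 8.77 to 140 ± 19.9 RPM (log2FC 0.69, standard error 0.14, 95% interval 0.32 to 1.06, adjusted p = 0.035, limma). This call was near the threshold. It was lost with the block (adjusted p = 0.10) and when any 1 of the 6 libraries was left out (adjusted p from 0.052 to 0.11), while the log2FC stayed between 0.59 and 0.79. Of the 50 genes around NT5E on chromosome 6, only 10 were higher and their median log2FC was -0.34. With this median subtracted, the log2FC of NT5E was 1.03 (adjusted p = 0.013).

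CD47, the signal against engulfment (AMPL9646946, chr3:108043094-108091862, minus strand), had 84.3, 64.2 and 79.4 RPM in HuCCT1/CD90- and 196, 183 and 189 RPM in HuCCT1/CD90+ replicates 1, 2 and 3. Each HuCCT1/CD90+ library was more than double the level of any HuCCT1/CD90- library. The mean rose from 75.9 ± 10.5 to 189 ± 6.64 RPM, a log2FC of 1.32 (standard error 0.11, 95% interval 1.01 to 1.62, adjusted p = 0.0042, limma). It passed in all 18 alternatives. CD47 lies where neighbouring genes were higher together, with 40 of the 50 nearest genes higher and a median log2FC of 0.60. With this median subtracted the log2FC of CD47 was 0.71 (adjusted p = 0.022). HHLA2 and CD80, at or near 0 reads, lie on the same chromosome among genes with medians of 0.61 and 0.60.

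LGALS9 (AMPL12890627, chr17:27629798-27649560, plus strand) had the fewest reads of the detected genes in HuCCT1/CD90- and the largest log2FC of the 10. It had 3.51, 5.14 and 3.40 RPM in HuCCT1/CD90- and 14.3, 20.3 and 19.4 RPM in HuCCT1/CD90+ replicates 1, 2 and 3, from 35 to 48 and from 133 to 179 reads. The lines were well separated. The mean rose from 4.01 ± 0.974 to 18.0 ± 3.25 RPM, a log2FC of 1.92 (standard error 0.20, 95% interval 1.38 to 2.47, adjusted p = 0.0070, limma), and it passed in all 18 alternatives. The scale with 1 RPM added understates low genes. With 5 RPM added the log2FC was 1.35, and edgeR on the reads gave 2.17.

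The level of LGALS9 is uncertain because LGALS9B and LGALS9C are nearly identical copies and reads could be shared between them. LGALS9B went from 0.358 ± 0.187 to 2.07 ± 0.695 RPM (log2FC 1.16, adjusted p = 0.031, limma, or 0.13 with the block) and LGALS9C from 5.13 ± 1.14 to 12.1 ± 1.01 RPM (log2FC 1.11, adjusted p = 0.014, and up to 0.055 without HuCCT1/CD90- replicate 3, HuCCT1/CD90+ replicate 1 or HuCCT1/CD90+ replicate 2). When the 3 genes were summed, the levels were 10.5, 9.84 and 8.15 RPM in HuCCT1/CD90- and 28.7, 34.6 and 33.2 RPM in HuCCT1/CD90+. The summed level was 3.39-fold higher in HuCCT1/CD90+ (exact permutation test, two-sided, p = 0.1, the smallest that 3 against 3 libraries can give). LGALS9 held 33.3%, 52.2% and 41.7% of the summed reads in HuCCT1/CD90- and 49.6%, 58.6% and 58.5% in HuCCT1/CD90+ replicates 1, 2 and 3.

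Of the 10 genes, 7 had every HuCCT1/CD90+ library above every HuCCT1/CD90- library, HHLA2 with its single reads among them, against 17.3% of all genes. Among the 8794 genes whose mean reached 10 RPM this share was 26.6%, and 14.3% were higher at an adjusted p of at most 0.05. The 7 detected genes all had such a mean, LGALS9 only through its level in HuCCT1/CD90+, so nothing is read from their count in this subset. In these bulk libraries fewer cells carrying a message cannot be told apart from less of it per cell.

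**Figure D2:**
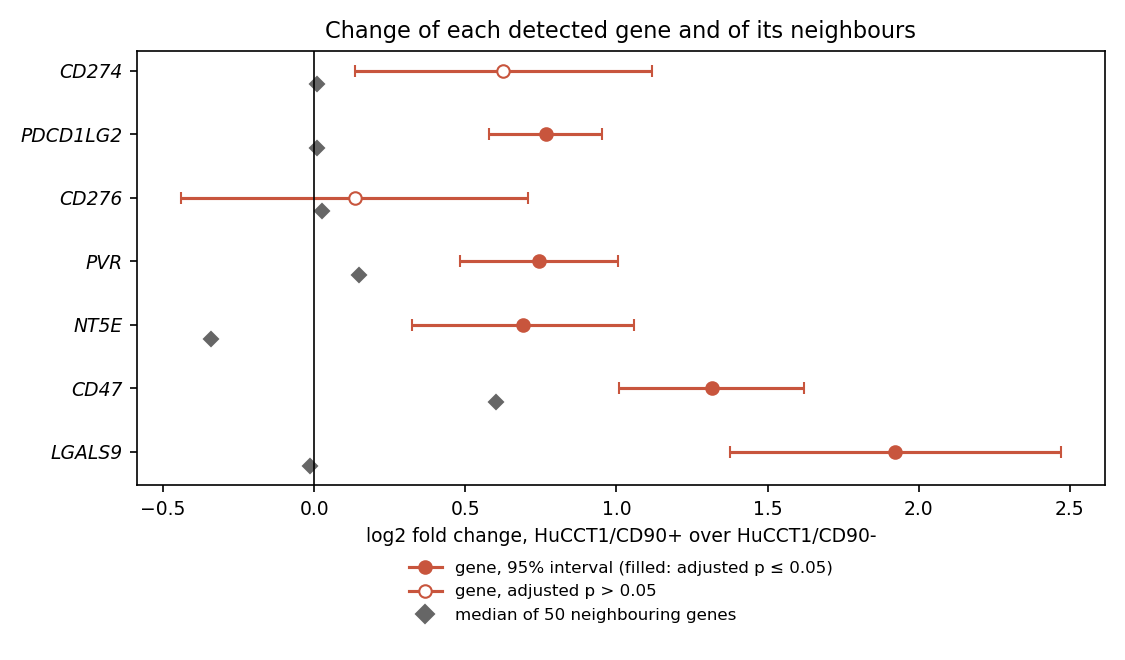
Log2 fold change of HuCCT1/CD90+ over HuCCT1/CD90- (horizontal axis) for the 7 genes above the floor, with 95% intervals from limma and filled circles for adjusted p of at most 0.05, beside the median of the 50 nearest genes (grey diamonds). LGALS9 at 1.92 and CD47 at 1.32 lie farthest from 0, the interval of CD276 crosses 0, and the neighbours of CD47 have a median of 0.60 and those of NT5E of -0.34.

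The calls of 3 of these genes depended on the setting. Over the 7 detected genes and 18 alternatives, 111 of 126 values kept their direction and their side of the threshold. The 5 that newly passed were those of CD274 given above, the 9 that no longer passed were of PVR and NT5E, and the 1 that changed sign was that of CD276.

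**Figure D3:**
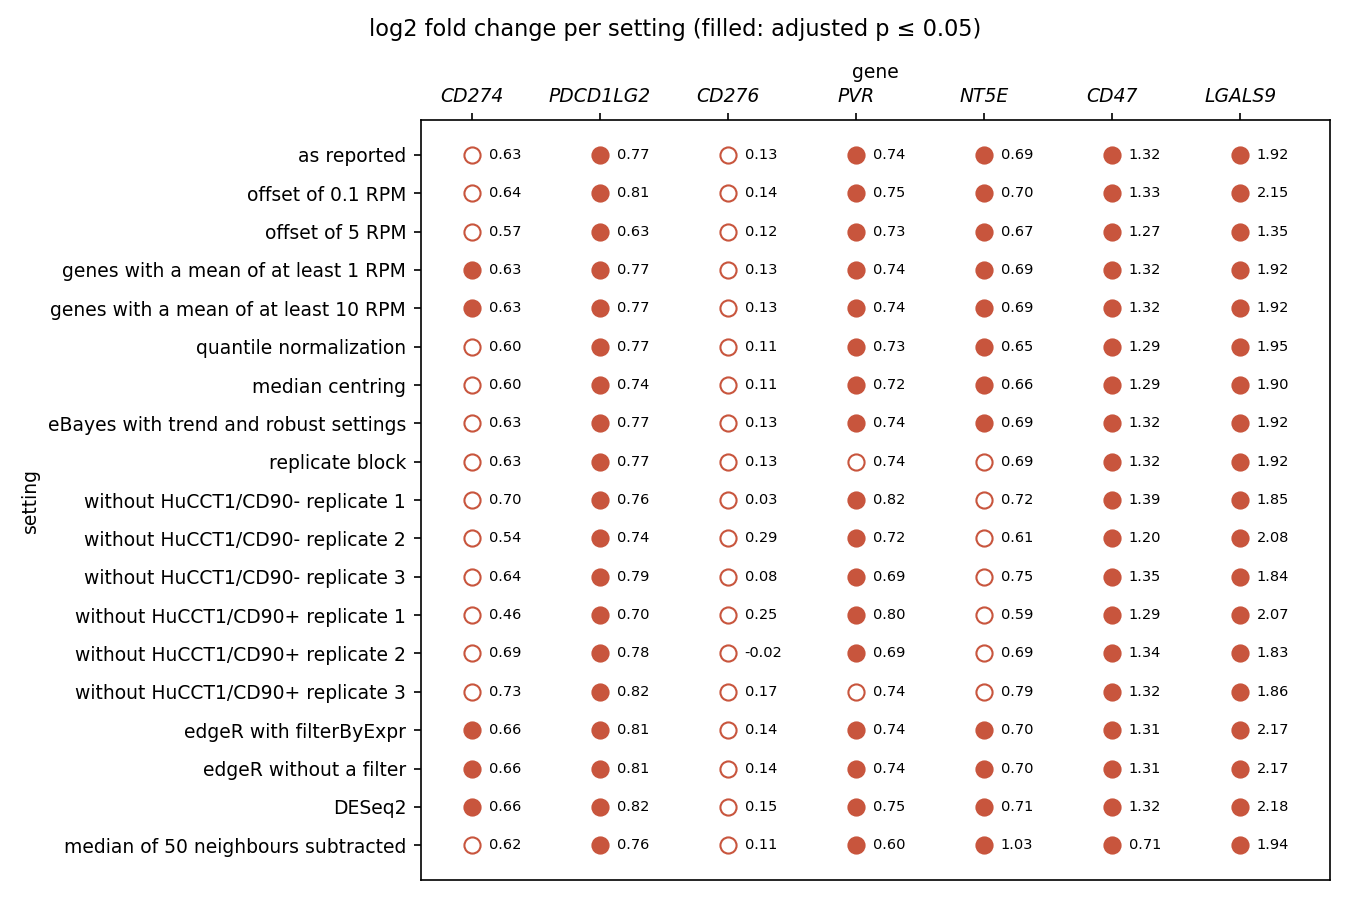
Log2 fold change of each detected gene (columns) under the reported fit and each alternative (rows), printed beside a circle that is filled where the adjusted p was at most 0.05. PDCD1LG2, CD47 and LGALS9 are filled in every row, CD276 in none, and CD274, PVR and NT5E in some.

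Genes related to the ligands by family, receptor or pathway were then examined in 8 lists, of which 115 of 118 genes were found and 39 were at the floor in both lines. Over the lists together 13 genes were higher and 17 lower in HuCCT1/CD90+ (limma, adjusted p of at most 0.05), which is 11.3% and 14.8% of the 115, against 9.41% and 9.52% of all genes. Of these 30 calls, 16 held whichever library was left out and 14 did not, and 12 were lost with the replicate number as a block. The block added 4 others, ICOSLG and MYC as higher and LGALS1 and IRF1 as lower. ICOSLG was near the floor, with 3 to 12 reads per library. ICOSLG, MYC and LGALS1 were named after their values were seen. Of 14 other B7 and butyrophilin genes, 6 were at the floor in both lines, none was higher and 3 were lower. These were the butyrophilin genes BTN2A2, which fell from 26.3 ± 4.88 to 8.80 ± 0.819 RPM (log2FC -1.47, adjusted p = 0.0077), BTN3A3, which fell from 12.9 to 4.69 RPM, and BTN3A2, which fell from 69.4 to 29.2 RPM but whose call was lost when 1 of 4 libraries was left out (adjusted p up to 0.063). These 3 genes lie close together on chromosome 6, where 8 to 9 of the 50 nearest genes were higher and the median log2FC was -0.48 for BTN2A2 and BTN3A2 and -0.49 for BTN3A3. With these medians subtracted BTN2A2 (adjusted p = 0.023) and BTN3A3 (adjusted p = 0.046) passed and BTN3A2 did not (adjusted p = 0.064). The median log2FC of the 14 was 0, and -0.54 over those above the floor, against -0.0087 over all genes above the floor.

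Of 8 nectin and nectin-like genes, the family of PVR, 2 were at the floor, 1 was higher and 1 lower. NECTIN4, an adhesion protein of carcinoma cells, rose from 0.738 ± 0.247 to 10.1 ± 3.32 RPM (log2FC 2.63, adjusted p = 0.0071). NECTIN3 fell from 46.2 ± 9.18 to 15.0 ± 2.49 RPM (log2FC -1.56, adjusted p = 0.011, or 0.081 with the block). The median of the 8 was -0.022, and -0.083 over those above the floor.

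Among the 16 genes of the adenosine axis around NT5E, 3 were higher and 5 lower. ENTPD1 (CD39), the usual first step before NT5E, was at the floor in both lines with 1 read in all. ENTPD2, another ectonucleotidase, had 2, 2 and 5 reads in HuCCT1/CD90- and 51, 77 and 62 reads in HuCCT1/CD90+ (adjusted p = 0.0028). The nucleoside transporter gene SLC29A2 rose from 19.2 ± 2.58 to 54.2 ± 12.9 RPM (log2FC 1.43, adjusted p = 0.020), a call lost when 1 of 5 libraries was left out (adjusted p up to 0.075). ENPP1, an ectoenzyme that cleaves ATP to AMP, fell from 18.3 ± 1.41 to 0.805 ± 0.248 RPM (log2FC -3.43, adjusted p = 0.00052), and CD38, which consumes extracellular NAD, from 34.4 ± 8.49 to 2.50 ± 1.23 RPM (log2FC -3.37, adjusted p = 0.0056). The other calls were ENTPD3, which was higher, and SLC29A1, ADK and ENTPD8, which were lower, and each of them was lost without some library. With the block ENTPD3 kept its call (adjusted p = 0.031), and SLC29A1 (adjusted p = 0.077), ADK (adjusted p = 0.098) and ENTPD8 (adjusted p = 0.13) did not. With the neighbours subtracted, the calls of SLC29A1 (adjusted p = 0.079) and ENTPD8 (adjusted p = 0.13) were lost. The median of the 16 was -0.019, and -0.24 over those above the floor.

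Of 10 genes of the phagocytosis signals around CD47, 4 were at the floor, 1 was higher and 1 lower. SIRPA, the receptor of CD47, was low and rose from 0.584 ± 0.514 to 6.10 ± 1.78 RPM (log2FC 2.18, adjusted p = 0.014), with an adjusted p of up to 0.055 without HuCCT1/CD90- replicate 3 or HuCCT1/CD90+ replicate 3. LRP1, the receptor through which calreticulin promotes engulfment, fell from 131 ± 52.0 to 11.3 ± 2.99 RPM (log2FC -3.37, adjusted p = 0.0095). THBS1, a secreted partner of CD47, had 3294 ± 234 and 3060 ± 650 RPM, with no difference beyond the spread (log2FC -0.13, adjusted p = 0.79). The median of the 10 was 0.00043, and 0.092 over those above the floor.

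Of 13 genes of other galectins and of a galectin-binding protein, 5 were at the floor, 3 were higher and 1 was lower. Beside LGALS9B and LGALS9C, LGALS3 (galectin 3) rose from 195 ± 19.1 to 330 ± 18.6 RPM (log2FC 0.76, adjusted p = 0.0095, or 0.065 with the block). LGALS12 had 152, 158 and 112 reads in HuCCT1/CD90- and 1, 3 and 4 reads in HuCCT1/CD90+ (log2FC -3.53, adjusted p = 0.0014). The median of the 13 was 0, and 0.017 over those above the floor.

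Of 14 receptor genes of lymphocytes and myeloid cells, 9 were at the floor in both lines. PVRIG, named after its values were seen, was well above it with 60 to 93 reads per library and was not called (7.75 and 8.97 RPM, adjusted p = 0.72, limma). CD28, CTLA4, TMIGD2 and KIR3DL3 had 0 reads in every library, TIGIT had 1 read and HAVCR2 4 reads in all libraries together. CD96 had 0 reads in HuCCT1/CD90- and 2, 4 and 0 reads in HuCCT1/CD90+ (adjusted p = 0.32, limma). PDCD1 passed as higher with 0, 0 and 1 reads against 5, 6 and 3 reads (adjusted p = 0.033, or 0.13 with the block), and CD226 as lower with 4, 5 and 6 reads against 1, 0 and 1 reads (adjusted p = 0.018, or 0.080 with the block). Neither reached 1 RPM in any library, and both calls were lost when 1 of 5 libraries was left out.

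Of 22 genes that regulate CD274, none was at the floor, 2 were higher and 3 lower, and the median log2FC was 0.10. IFNGR1, a chain of the interferon gamma receptor, fell from 51.7 ± 3.78 to 18.8 ± 1.78 RPM (log2FC -1.41, adjusted p = 0.0019). EGFR, whose signalling can raise CD274, rose from 228 ± 53.0 to 541 ± 63.6 RPM (log2FC 1.26, adjusted p = 0.024, or 0.068 with the block). Of the 50 genes around EGFR on chromosome 7, 42 were higher with a median log2FC of 0.57, and with this median subtracted EGFR did not pass (log2FC 0.70, adjusted p = 0.12). B4GALT1, a galactosyltransferase, fell from 200.1 ± 20.4 to 101 ± 9.03 RPM (log2FC -0.98, adjusted p = 0.0070, or 0.062 with the block), and HIF1A, the hypoxia factor, from 566 ± 62.8 to 354 ± 49.2 RPM (log2FC -0.68, adjusted p = 0.037, or 0.15 with the block). SOCS3 was the other gene called higher, at the threshold itself (adjusted p = 0.0499, or 0.091 with the block). The calls of EGFR, HIF1A and SOCS3 were also lost without some library. JAK2 had 12.7 ± 1.58 and 10.0 ± 2.45 RPM (adjusted p = 0.38) and CMTM6, which stabilises PD-L1 at the cell surface, 143 ± 21.4 and 133 ± 15.2 RPM (adjusted p = 0.77). IRF1 had 63.2 ± 13.5 and 48.3 ± 8.88 RPM (log2FC -0.37, adjusted p = 0.34), and was lower with the block (adjusted p = 0.043). MYC, a transcription factor, was not called (log2FC 0.57, adjusted p = 0.086) and was higher with the block (adjusted p = 0.037).

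Of 18 other inhibitory ligands and enzymes, 9 were at the floor, 2 were higher and 2 lower. Their median was 0, and -0.18 over those above the floor. IDO1, which depletes tryptophan, had 126, 171 and 175 reads in HuCCT1/CD90- and 2, 3 and 0 reads in HuCCT1/CD90+ (log2FC -3.81, adjusted p = 0.0014, limma). IDO1 was at the floor in HuCCT1/CD90+, so this log2FC depends on the 1 RPM added. Its level there was at least 45.1-fold lower against a floor of 3 reads per library. TNFSF10 (TRAIL) fell from 23.8 ± 4.42 to 4.96 ± 1.49 RPM (log2FC -2.07, adjusted p = 0.0085). ARG2, an arginase, rose from 5.92 ± 0.732 to 32.6 ± 6.03 RPM (log2FC 2.27, adjusted p = 0.0023). CEACAM1, which was named after its values were seen and is another ligand of TIM-3, had 0 reads in each HuCCT1/CD90- library and 16, 13 and 23 reads in HuCCT1/CD90+ (adjusted p = 0.0044), at least 5.94-fold higher against a floor of 3 reads per library.

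**Figure D4:**
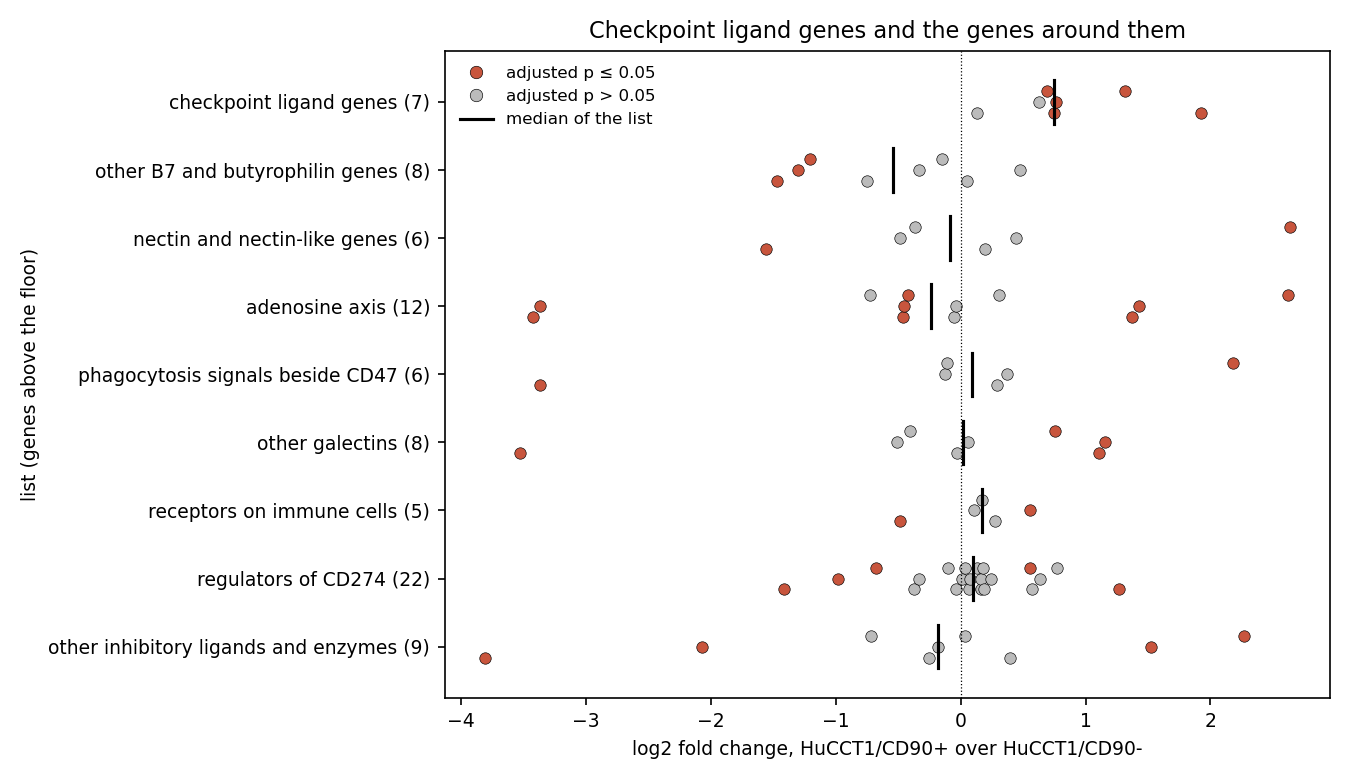
Log2 fold change of HuCCT1/CD90+ over HuCCT1/CD90- (horizontal axis) for the genes above the floor in the ligand set and each of the 8 lists, with red points for adjusted p of at most 0.05, grey points for the rest and a black line at the median of each list. The 7 ligand genes all lie above 0, whereas the called genes of the adenosine axis lie on both sides, from -3.43 for ENPP1 to 2.62 for ENTPD2, and those of the butyrophilin list all below 0.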

How the data were processed

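Total RNA of 6 libraries was read with the Ion AmpliSeq Transcriptome panel (1 amplicon per gene) by Ion GeneStudio S5 Prime sequencing. The ampliSeqRNA plugin gave the authors read counts, which they deposited as RPM, scaled to 1 total per library and without a filter. The submitters' processing notes name hg19. The table holds no coordinates, so positions come from GENCODE 29 on GRCh38 (18609 genes placed by name). Dividing by the worth of 1 read gave whole reads in 100% of values (tolerance 0.05 read). PCR reads without molecular identifiers do not count independent molecules.

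Members and lists were chosen with earlier results of these data known. Groups follow the labels. The RPM values were taken to log2(RPM + 1) and tested with limma 3.58.1 (lmFit, eBayes, R 4.3.3) over all 20811 genes, including 3805 at 0 reads in every library, with the line as the single term and Benjamini-Hochberg adjustment. The named genes are the 10 ligands, in each list at most the 4 called genes with the largest change and a mean of at least 1 RPM, the receptors, partners and regulators (called or not) PDCD1, CD28, CTLA4, TMIGD2, KIR3DL3, TIGIT, CD96, CD226, SIRPA, THBS1, HAVCR2, ENTPD1, CMTM6, IRF1 and JAK2, the genes beside CD274 and PDCD1LG2, and THY1. ENTPD3, SLC29A1, ADK, ENTPD8, SOCS3, CEACAM1, ICOSLG, MYC, LGALS1, PVRIG and the cell type markers given singly were named later, to complete counts and descriptions. NECTIN1 to NECTIN4 and VSIR were matched through older symbols.

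After the mean of each line was removed, libraries sharing a number correlated (r = 0.21, 0.32 and 0.18) and other pairs less (r from -0.29 to 0.07). Pairing by number was accepted on this check, which rests on the data alone, and a replicate block was an alternative. The others were offsets of 0.1 and 5 RPM, minimum means of 1 and 10 RPM, quantile normalization, median centring, eBayes with trend and robust settings, each library left out, edgeR 4.0.16 (quasi-likelihood, with and without filterByExpr) and DESeq2 1.42.0 on the recovered reads, the study's thresholds, and subtraction of the median of the 50 nearest genes. For the single value of the 3 summed galectin genes an exact permutation test over libraries was used.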

Additional observations from a re-analysis of the deposited data

How the results depend on the processing

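When the replicate number was added as a block, 4 of the 10 ligand genes passed instead of 6, both counts with HHLA2, which was at the floor. PVR (adjusted p = 0.081, limma) and NT5E (adjusted p = 0.10, limma) no longer did, and in the 8 lists 22 genes passed instead of 30. Over all genes the block took the higher calls from 1958 to 1398 and the lower calls from 1981 to 1331. The block changed no other call of a ligand gene. Leaving out each library in turn left 4 to 5 ligand genes, always with HHLA2 among them, and 17 to 24 list genes past the threshold. There were 17 list genes without HuCCT1/CD90- replicate 3 and 18 without HuCCT1/CD90+ replicate 2 or HuCCT1/CD90+ replicate 3, with 2 libraries in 1 line and fewer samples in the fit. The log2 fold change of CD276 went from -0.018, without HuCCT1/CD90+ replicate 2, to 0.29, and was positive in the other alternatives. PDCD1LG2 (0.63 to 0.82), CD47 (0.71 to 1.39) and LGALS9 (1.35 to 2.18) kept their direction and call in all 18. Quantile normalization and median centring moved the median of genes whose mean reached 1 RPM to -0.012 and -0.035.

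The calls of genes near the floor rest on single reads, and 83 genes passed while at the floor in both lines. The 1 amplicon per gene cannot show isoforms. Protein was not measured here.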
